A study of Mus musculus with 22 samples.

Results

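This report covers 9 genes listed as identity genes of B cells and of the plasma cells that B cells become: Ms4a1, Cd79a, Cd79b, Cd22, Pax5, Pou2af1, Xbp1, Mzb1 and Jchain. Not all of them are confined to those cells. They were chosen by name, were matched by symbol to their Ensembl mouse identifiers and are 9 of the 52636 genes in the count tables. The bulk RNA-seq data comprise 22 mouse libraries, sorted by their titles into 6 groups: aged capsule tissue (3 libraries), young capsule tissue (3), aged RCAM libraries (4), young RCAM libraries (4), capsule macrophages (4) and kidney macrophages (4). The renal capsule is the thin fibrous sheath of the kidney. The labels list no treatment in any group. They do not expand RCAM and name whole tissue as its cell type, whereas the series text speaks of capsules sorted by flow cytometry for macrophages. They state no strain, sex, batch or age in months, and no age class for the capsule and kidney macrophages. Nothing says that the libraries of a group came from separate animals, so p-values measure the spread between these libraries, which may be technical.

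B cells carry an antibody on their surface as the B cell receptor, which signals through the paired chains encoded by Cd79a and Cd79b. When activated they can become plasma cells, which switch off much of the B cell program, Pax5 and Ms4a1 included, enlarge the endoplasmic reticulum and secrete antibody. Jchain encodes the chain that joins IgM or IgA units into polymers, so its transcript is abundant in cells that secrete those classes. Levels are given as CPM, counts per 1e6 reads counted in a library, with SD over the libraries of a group. Fold changes and adjusted p-values come from edgeR's quasi-likelihood test over all genes that passed a filter on low counts, with Benjamini-Hochberg adjustment. A gene was called at an adjusted p under 0.05.

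Library totals, in M counts (1e6), ran from 27.1 to 43.2 M counts in aged capsule tissue, from 20.6 to 22.2 M in young capsule tissue, from 45.0 to 54.4 M in RCAM libraries and from 31.8 to 53.4 M in macrophage libraries. The summed CPM of 10 macrophage markers was 35950 to 40110 in RCAM libraries, 34315 to 38047 in capsule macrophages and 25864 to 28358 in kidney macrophages, against 2012 to 10184 in capsule tissue. All 10 markers had counts in every group. RCAM libraries held at most 106 CPM of 7 adipocyte markers, against at least 16104 CPM in capsule tissue. RCAM libraries thus had the marker profile of the macrophage libraries and not that of the tissue that their cell type label names. Capsule libraries numbered 2 stood apart in both ages, with 6087 CPM of adrenal markers in aged capsule tissue and 190.2 CPM in young capsule tissue, against at most 14.9 CPM in the other capsule libraries.

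Aged and young capsule tissue were compared first. In aged capsule tissue Jchain, Mzb1, Pou2af1, Cd22 and Cd79a rose, and none of the 9 genes fell. Of all 16350 genes tested, 0.153% were called higher and 0.0856% lower, 0.239% in all. Of the 9 genes, 8 had CPM ranges that did not overlap between the ages and were higher in aged capsule tissue, as 19.1% of all genes tested did in that direction. The median log2 fold change was 1.98 for the 4 surface genes, 2.01 for the 3 transcription genes and 4.87 for the 2 secretion genes, against 0.03 for all genes. A larger number of cells of a type and more RNA per cell cannot be told apart in bulk tissue.

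Among the surface genes, Cd79a, the first signalling chain of the B cell receptor, had 11.6, 10.4 and 11.6 CPM in aged capsule tissue, against 2.43, 3.01 and 3.15 CPM in young capsule tissue. The aged libraries lay close together and well above every young one (log2 fold change 1.84 ± 0.25 SE, adjusted p = 0.0447). Cd22, a lectin that dampens receptor signalling, had 19.2, 7.47 and 20.4 CPM in aged capsule tissue, against 1.46, 1.17 and 1.4 CPM in young capsule tissue. The low aged value belonged to the library with adrenal markers and was still above every young value (log2 fold change 3.43 ± 0.42 SE, adjusted p = 0.0339). Ms4a1, which encodes the B cell surface protein CD20, had 14.3, 14.7 and 29.5 CPM in aged capsule tissue, against 3.01, 3.85 and 5.72 CPM in young capsule tissue. Cd79b, the second signalling chain, had 15.5, 16.7 and 23.2 CPM in aged capsule tissue, against 5.73, 6.39 and 9.24 CPM in young capsule tissue. Neither passed the threshold, although the ranges were apart, with log2 fold changes of 2.11 ± 0.41 SE (adjusted p = 0.0711) for Ms4a1 and 1.26 ± 0.29 SE (adjusted p = 0.0875) for Cd79b. The Ms4a1 locus overlaps an opposite-strand gene, 4930526L06Rik, which had at most 47 counts in a library, and the strand setting of the counting is not given in the sources used here.

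Among the transcription genes, Pou2af1, a coactivator that works with octamer-binding factors at antibody gene promoters, had 16.8, 13.3 and 16.7 CPM in aged capsule tissue, against 0.971, 1.74 and 2.34 CPM in young capsule tissue. Its log2 fold change was 3.08 ± 0.36 SE (adjusted p = 0.028). Pax5, the factor that maintains B cell identity, had 6.06, 5.86 and 3.03 CPM in aged capsule tissue, against 0.874, 1.36 and 1.13 CPM in young capsule tissue, and did not pass the threshold (log2 fold change 2.01 ± 0.39 SE, adjusted p = 0.0717). Xbp1, a factor of the unfolded protein response that plasma cells need and that most cell types also express, had 297, 427 and 387 CPM in aged capsule tissue, against 347, 329 and 259 CPM in young capsule tissue. Its ranges overlapped and its log2 fold change was 0.14 ± 0.24 SE (adjusted p = 0.767).

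The secretion genes had the highest fold changes of the 9. Jchain had 293, 286 and 691 CPM in aged capsule tissue, from 12660, 10676 and 18733 counts, against 2.67, 6.25 and 9.06 CPM in young capsule tissue, from 55, 133 and 201 counts. The lowest aged library thus exceeded the highest young one by a wide margin (log2 fold change 6.04 ± 0.64 SE, adjusted p = 0.0249). Mzb1, a protein of the endoplasmic reticulum that helps antibody assembly and secretion, had 12.6, 12.2 and 25.7 CPM in aged capsule tissue, against 0.631, 0.94 and 1.98 CPM in young capsule tissue (log2 fold change 3.71 ± 0.53 SE, adjusted p = 0.0469). The 5 calls rest on few libraries. Leaving out aged library 1, young library 1 or young library 3 left none of the 9 genes called (adjusted p of those 5 genes 0.106 to 0.154, 0.123 to 0.186 and 0.051 to 0.0734), with 0, 0 and 6 genes called in all, and leaving out aged library 3 left Jchain alone (adjusted p = 0.0399). The folds moved less, to 5.43 for Jchain without aged library 3 and to 4.32 for Mzb1 without young library 3 on the log2 scale. With limma-voom Pou2af1 and Jchain stayed called, and Cd79a, Cd22 and Mzb1 did not (adjusted p = 0.0577, 0.0853 and 0.0749). With DESeq2, Ms4a1, Cd79b and Pax5 were called as well (adjusted p = 5.34e-05, 0.00336 and 0.000218), as they were with no filter on low counts (adjusted p = 0.00904, 0.0288 and 0.0204).

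**Figure D1:**
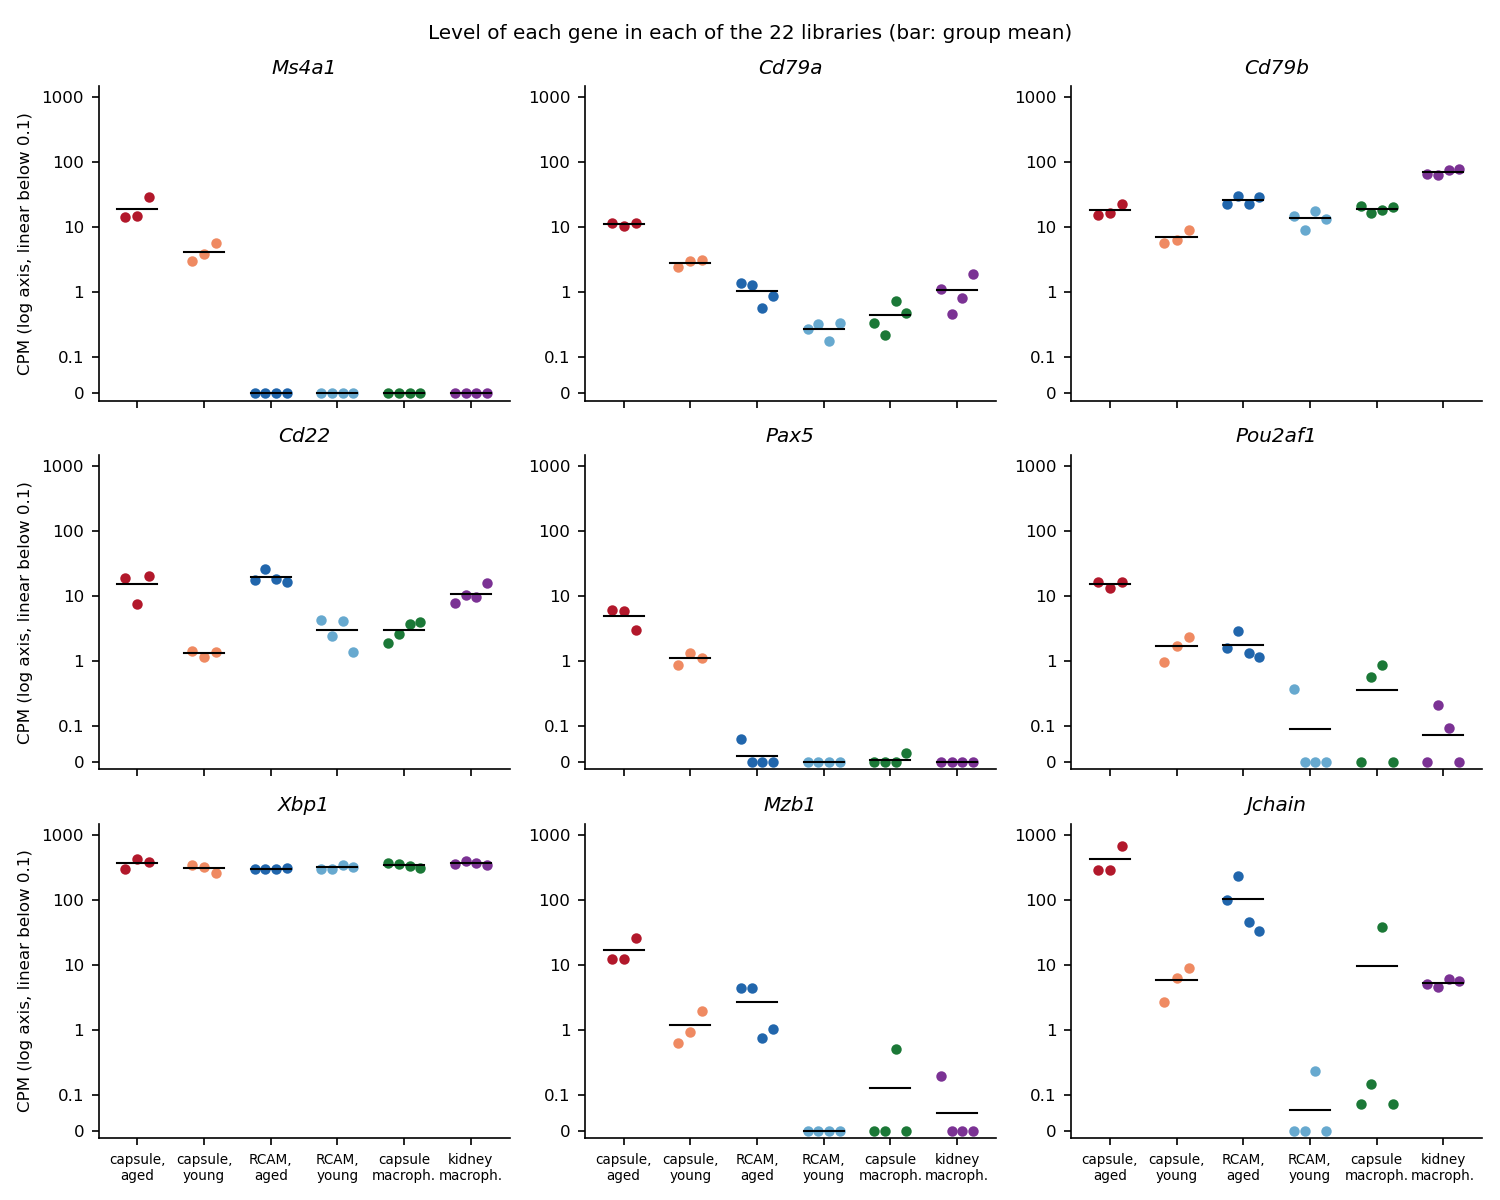
CPM of each gene (vertical axis, logarithmic above 0.1) in each of the 22 libraries, by group, with a bar at the group mean. Ms4a1 is at 0 in all 16 RCAM and macrophage libraries, Xbp1 is between 259 and 427 CPM in every library, and Jchain reaches 691 CPM in aged capsule tissue and 234 CPM in aged RCAM libraries.

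Because several of these genes moved together in the aged capsule, their promoters are shown for the 4 called genes whose windows can be printed, each covering 250 bases before to 50 bases after the RefSeq start in build GRCm38.p6. The table held windows for 6 of the 9 genes, and Ms4a1, Cd79b and Mzb1 are named only. Capitals mark a motif found by exact letters on either strand. The motifs searched were the octamer ATTTGCAT (held by 1.74% of 32851 promoters), the EBF-type palindrome CCCNNGGG (13.7%) and the XBP1-type element TGACGTGG (0.676%). These letters do not overlap one another in the 4 windows. The windows are Jchain at chr5:88527848-88528147 (minus strand), Pou2af1 at chr9:51213440-51213739 (plus strand), Cd22 at chr7:30878979-30879278 (minus strand, inside the gene's span in GENCODE) and Cd79a at chr7:24897247-24897546 (plus strand).
Jchain: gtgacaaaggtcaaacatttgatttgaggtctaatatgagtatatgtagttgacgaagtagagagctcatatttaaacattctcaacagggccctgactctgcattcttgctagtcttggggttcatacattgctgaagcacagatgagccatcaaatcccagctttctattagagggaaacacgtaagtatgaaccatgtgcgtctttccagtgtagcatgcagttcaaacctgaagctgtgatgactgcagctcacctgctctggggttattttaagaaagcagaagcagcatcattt
Pou2af1: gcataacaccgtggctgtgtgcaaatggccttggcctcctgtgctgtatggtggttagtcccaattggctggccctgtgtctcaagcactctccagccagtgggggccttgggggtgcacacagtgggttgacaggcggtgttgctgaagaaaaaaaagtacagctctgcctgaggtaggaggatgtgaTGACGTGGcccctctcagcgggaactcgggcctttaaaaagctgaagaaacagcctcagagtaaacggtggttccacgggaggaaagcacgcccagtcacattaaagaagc
Cd22: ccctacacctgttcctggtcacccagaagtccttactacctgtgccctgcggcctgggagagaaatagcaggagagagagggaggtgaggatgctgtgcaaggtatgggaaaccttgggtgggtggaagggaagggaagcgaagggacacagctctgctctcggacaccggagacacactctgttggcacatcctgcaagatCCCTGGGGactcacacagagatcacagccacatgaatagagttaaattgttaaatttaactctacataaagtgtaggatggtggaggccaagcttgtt
Cd79a: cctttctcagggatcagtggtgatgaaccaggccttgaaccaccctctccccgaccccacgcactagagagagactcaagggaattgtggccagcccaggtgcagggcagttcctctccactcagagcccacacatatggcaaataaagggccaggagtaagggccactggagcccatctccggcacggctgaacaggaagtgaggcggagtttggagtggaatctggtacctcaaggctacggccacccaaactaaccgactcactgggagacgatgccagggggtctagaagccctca
The Pou2af1 window held the XBP1-type letters with the first base at position -61 from the start, and the Cd22 window held the EBF-type letters with the first base at -48. The windows of Jchain, Cd79a, Pax5 and Xbp1 held none of the 3 motifs. These matches describe letters only.

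The same age comparison in RCAM libraries separated the secretion genes from Ms4a1 and Pax5. Jchain, Mzb1, Cd22, Cd79a and Cd79b rose in aged RCAM libraries, while Ms4a1 had 0 counts in all 8 RCAM libraries and Pax5 had 3 counts in aged library 1 and 0 in the other 7. Of the 15182 genes tested, 3.43% were called higher and 1.38% lower. The CPM ranges of 6 of the 9 genes did not overlap, with the aged libraries higher, as did those of 7.55% of the genes tested. Ms4a1 and Pax5 did not pass the filter on low counts and were not tested, and Mzb1, Jchain and Pou2af1 passed it through their aged libraries. No share of called genes is therefore drawn from this comparison, and the p-values of Mzb1, Jchain and Pou2af1 in it carry that limit. A count of 0 allows up to 3 counts, or 0.0667 CPM in the shallowest aged RCAM library, and covers counting error only.

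Jchain had 102, 234, 45.9 and 33.0 CPM in aged RCAM libraries, against 0, 0, 0.235 and 0 CPM in young RCAM libraries. Every aged library held at least 1514 counts and the young libraries held 12 counts in all, in library 3 (log2 fold change 10.73 ± 1.03 SE, adjusted p = 0.000861). The size of that fold rests on those 12 counts: the fitted value was 15.31 without young library 3, when all young libraries are at 0, and 9.93 without aged library 2. Mzb1 had 4.38, 4.5, 0.756 and 1.02 CPM in aged RCAM libraries, against 0 in all 4 young RCAM libraries. With 3 counts taken as the floor of each young library it was at least 45.8-fold higher (adjusted p = 0.00796). Aged libraries 1 and 2 were the high ones for both genes. Pou2af1 had 1.60, 2.94, 1.33 and 1.15 CPM in aged RCAM libraries, against 0.368, 0, 0 and 0 CPM in young RCAM libraries. It did not pass edgeR's threshold (log2 fold change 4.14 ± 1.20 SE, adjusted p = 0.0865), but did with limma-voom (adjusted p = 0.0149). It also did without young library 1 (fitted value 9.43, adjusted p = 0.00505), which leaves out the one young library with counts.

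Cd22 had 17.5, 26.3, 18.2 and 16.5 CPM in aged RCAM libraries, against 4.26, 2.41, 4.17 and 1.38 CPM in young RCAM libraries. The ranges were far apart, and Cd22 rose with a log2 fold change of 2.66 ± 0.34 SE (adjusted p = 0.00276). Cd79b had 22.9, 30.3, 22.6 and 29.8 CPM in aged RCAM libraries, against 15.1, 9.01, 17.9 and 13.5 CPM in young RCAM libraries (log2 fold change 0.91 ± 0.20 SE, adjusted p = 0.0307). Cd79a was scarce, with 1.39, 1.31, 0.578 and 0.871 CPM in aged RCAM libraries, against 0.276, 0.321, 0.176 and 0.334 CPM in young RCAM libraries (log2 fold change 1.87 ± 0.45 SE, adjusted p = 0.0447). Xbp1 had 298 to 314 CPM in aged RCAM libraries, against 302 to 349 CPM in young RCAM libraries, with a log2 fold change of -0.08 ± 0.06 SE (adjusted p = 0.534). Cd22, Mzb1 and Jchain stayed called with each of the 8 libraries left out. Cd79a did so only without aged library 3, and Cd79b lost its call without aged library 2, aged library 4 or young library 4 (adjusted p = 0.0734, 0.0857 and 0.0811), which left 3 genes called. With limma-voom the call of Jchain was lost (adjusted p = 0.205), as was that of Cd79a (adjusted p = 0.0687).

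**Figure D2:**
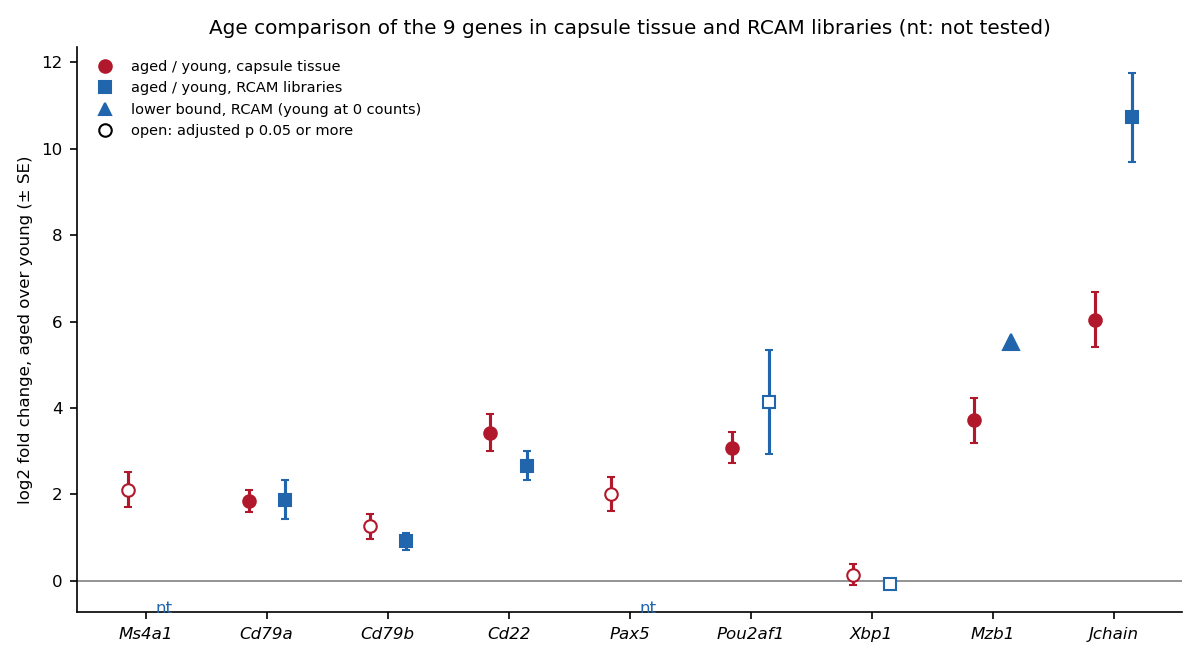
Log2 fold change of aged over young libraries with its SE for the 9 genes, in capsule tissue (circles) and RCAM libraries (squares), filled where the adjusted p was under 0.05; the triangle is the lower bound of Mzb1 and nt marks genes not tested. Jchain has the highest fitted value in both, 6.04 in capsule tissue and 10.73 in RCAM libraries, and Xbp1 lies at 0.14 and -0.08.

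An interaction term over the 4 aged and young groups tested whether ageing moved a gene differently in RCAM libraries and in the tissue. Ms4a1 has no such test, because its RCAM libraries are all at 0, and edgeR called none of the other 8 genes, where it called 5.05% of 18856 genes. Mzb1 and Jchain were under 0.05 before adjustment, DESeq2 called both and limma-voom called none. Mzb1 is at 0 in all young RCAM libraries, so its fitted difference depends on the prior count and is not given. Pax5 had 3 counts in RCAM libraries in all. The difference of log2 fold changes was 4.73 ± 1.33 SE for Jchain (adjusted p = 0.0562), with 12 counts behind its young RCAM level. It was -0.73 ± 0.57 SE for Cd22 (adjusted p = 0.502), -0.32 ± 0.36 SE for Cd79b (adjusted p = 0.674) and 0.07 ± 0.42 SE for Cd79a (adjusted p = 1). Jchain passed without aged capsule library 3 (adjusted p = 0.0361). Pou2af1 passed without young RCAM library 1 (adjusted p = 0.0226), but its remaining young RCAM libraries are then all at 0.

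Set against the capsule tissue of the same age, RCAM libraries had far less of most of the 9 genes but more Cd79b. These comparisons use the same libraries as the age comparisons, and most genes differed. Between aged RCAM libraries and aged capsule tissue 70.7% of 17595 genes were called (32.2% higher and 38.5% lower), and between young RCAM libraries and young capsule tissue 75.9% of 17491 genes (35.2% higher and 40.6% lower). Of the 9 genes, 7 were called at the aged age (1 higher and 6 lower) and 8 at the young one (2 higher and 6 lower). In both comparisons 6 of the 9 genes were lower without overlap of the CPM ranges, where 46.1% of all genes were at the aged age and 45.7% at the young one. With so many genes called, these counts are no result about the 9 genes, and their sizes are given instead. The kit used for each library is not stated, so kit and sample type cannot be told apart here.

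Ms4a1 was at least 307-fold lower in aged RCAM libraries than in aged capsule tissue (adjusted p = 4.26e-05) and at least 72.1-fold lower in young RCAM libraries than in young capsule tissue (adjusted p = 0.000112), with 3 counts per RCAM library as the floor. Ms4a1 passed the filter on low counts through its capsule libraries alone, and its p-values carry that limit. Cd79a averaged 1.04 ± 0.382 CPM in aged RCAM libraries and 11.2 ± 0.7 CPM in aged capsule tissue, a log2 fold change of -3.10 ± 0.34 SE (adjusted p = 6.82e-05), and the young comparison gave -3.09 ± 0.40 SE (adjusted p = 0.000151). Cd79b ran the other way. It averaged 26.4 ± 4.19 CPM in aged RCAM libraries and 18.4 ± 4.17 CPM in aged capsule tissue (log2 fold change 0.84 ± 0.21 SE, adjusted p = 0.00622), and 13.9 ± 3.74 CPM in young RCAM libraries and 7.12 ± 1.86 CPM in young capsule tissue (1.22 ± 0.29 SE, adjusted p = 0.00442). The CPM ranges of Cd79b overlapped in both comparisons, and its calls come from values scaled by TMM. Cd22 was higher in young RCAM libraries than in young capsule tissue (log2 fold change 1.45 ± 0.46 SE, adjusted p = 0.0197, lost without young capsule library 1 or 2 at adjusted p = 0.0526 and 0.0559), and its aged comparison gave 0.66 ± 0.34 SE (adjusted p = 0.116).

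The secretion genes were lower in RCAM libraries at both ages. Jchain averaged 104 ± 92.0 CPM in aged RCAM libraries and 423 ± 232 CPM in aged capsule tissue, a log2 fold change of -1.70 ± 0.66 SE (adjusted p = 0.0449). That call was lost without any 1 of 6 of the 7 libraries, at adjusted p values up to 0.196, and stood without aged RCAM library 2 (-2.5, adjusted p = 0.00359). Mzb1 gave -2.34 ± 0.65 SE at the aged age (adjusted p = 0.0114, 0.0519 without aged capsule library 3). At the young age Jchain gave -6.38 ± 1.22 SE (adjusted p = 0.00148; fitted value -10.56 without young RCAM library 3, when the others are at 0) and Mzb1 was at least 20.3-fold lower (adjusted p = 0.000827). Pax5 was at least 19.3-fold lower in young RCAM libraries (adjusted p = 0.000374). At the young age Jchain, Mzb1, Pax5 and Pou2af1 passed the filter on low counts through their capsule libraries, and their p-values carry that limit. Pou2af1 gave -2.82 ± 0.35 SE at the aged age (adjusted p = 0.000146), and at the young age -3.84 ± 1.39 SE (adjusted p = 0.0336), a call lost without any 1 of 6 libraries at adjusted p values up to 0.094 (fitted value -8.74 without young RCAM library 1, when the others are at 0).

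Capsule macrophages and kidney macrophages both lacked Ms4a1, with 0 counts in all 8 libraries, and carried Cd79b and Cd22 at different levels. Cd79b had 21.1, 16.6, 18.8 and 20.3 CPM in capsule macrophages, against 65.5, 64.2, 75.8 and 79.7 CPM in kidney macrophages. The groups were far apart, and Cd79b was lower in capsule macrophages (log2 fold change -1.68 ± 0.12 SE, adjusted p = 1.07e-06). Cd22 had 1.91, 2.61, 3.74 and 3.97 CPM in capsule macrophages, against 7.99, 10.5, 9.61 and 15.7 CPM in kidney macrophages, and was lower as well (log2 fold change -1.64 ± 0.30 SE, adjusted p = 0.00097). These were the 2 genes called of the 9, where 28.2% of 15701 genes tested were called lower and 55.4% in either direction, and both calls held without each library. They were also the 2 of the 9 that were lower without overlap, where 35.1% of genes were. Cd79a had 0.222 to 0.732 CPM in capsule macrophages, against 0.464 to 1.91 CPM in kidney macrophages, and did not pass the threshold (log2 fold change -1.07 ± 0.55 SE, adjusted p = 0.12).

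Jchain differed between libraries of capsule macrophages more than between the groups. It had 0.0749, 0.148, 38.1 and 0.0763 CPM in capsule macrophages, against 5.06, 4.55, 6.06 and 5.70 CPM in kidney macrophages. Replicate 3 held 1770 of the 1783 counts in capsule macrophages, the other 3 held 3 to 6 counts each, and the kidney macrophage libraries were even, at 193 to 284 counts. The log2 fold change was 1.04 ± 1.47 SE (adjusted p = 0.569) with replicate 3 and -5.51 (adjusted p = 2.51e-06) without it. Without replicate 3 Jchain passed the filter on low counts through kidney macrophages alone, and that fold and p-value carry that limit. Replicate 3 also held all 24 counts of Mzb1 in its group and 41 of the 64 counts of Pou2af1, with the other 23 in replicate 2. Mzb1 had 9 counts in kidney macrophage replicate 1 and 0 in the other 3. Pax5 had 1 count in capsule macrophage replicate 4 and 0 in the other 7 libraries. Xbp1 had 313 to 378 CPM in capsule macrophages, against 352 to 399 CPM in kidney macrophages (log2 fold change 0.12 ± 0.08 SE, adjusted p = 0.222). Ms4a1, Pax5, Pou2af1 and Mzb1 did not pass the filter and were not tested.

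Ordered by mean CPM over the 6 groups, aged capsule tissue came first for Ms4a1, Cd79a, Pax5, Pou2af1, Mzb1 and Jchain, each with a range apart from the next group. Young capsule tissue came next for Ms4a1, Cd79a and Pax5, and aged RCAM libraries came next for Pou2af1, Mzb1 and Jchain. Aged RCAM libraries and young capsule tissue overlapped for Pou2af1 (1.76 ± 0.807 and 1.68 ± 0.688 CPM) and for Mzb1 (2.67 ± 2.05 and 1.18 ± 0.708 CPM). Cd79b instead was highest in kidney macrophages, at 71.3 ± 7.62 CPM, apart from aged RCAM libraries as the next group. Cd22 was highest in aged RCAM libraries, at 19.6 ± 4.51 CPM, a range that overlapped that of aged capsule tissue at 15.7 ± 7.16 CPM. For Xbp1 the group means lay between 305 and 370.4 CPM and every neighbouring pair of groups overlapped. Pou2af1 was at 0 counts in 7, Mzb1 in 10, Jchain in 3 and Pax5 in 14 of the 16 RCAM and macrophage libraries, while Cd79a, Cd79b, Cd22 and Xbp1 had counts in all 16.

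Ratios taken within a library do not depend on its total, and levels are compared between genes per kilobase of exon. The ratio of Jchain to Cd79a was 14.6 to 34.6 in aged capsule tissue, against 0.637 to 1.66 in young capsule tissue, so Jchain differed more between the ages than Cd79a did. The same ratio was 21.9 to 103 in aged RCAM libraries, against 0 to 0.772 in young RCAM libraries. The ratio of Jchain to Mzb1 was 11.2 to 13.0 in aged capsule tissue, against 2.04 to 3.21 in young capsule tissue, and 11.3 to 29.3 in aged RCAM libraries. The ratio of Cd79b to Cd79a, which form a pair in the receptor, was 1.36 to 2.05 in aged capsule tissue, against 2.16 to 2.98 in young capsule tissue. It was at least 16.8 in every RCAM and macrophage library and reached 141 in kidney macrophages, on Cd79a counts as low as 9. The ratio of Cd22 to Cd79b was 0.127 to 0.353 in aged capsule tissue, against 0.0429 to 0.0722 in young capsule tissue. It was 0.158 to 0.247 in aged RCAM libraries, against 0.029 to 0.0799 in young RCAM libraries, and 0.0257 to 0.0565 over the macrophage libraries. The ratio of Cd79b to Cd79a overlapped between the ages in RCAM libraries, at 16.8 to 39.8 in aged RCAM libraries, against 28.6 to 104 in young RCAM libraries.

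**Figure D3:**
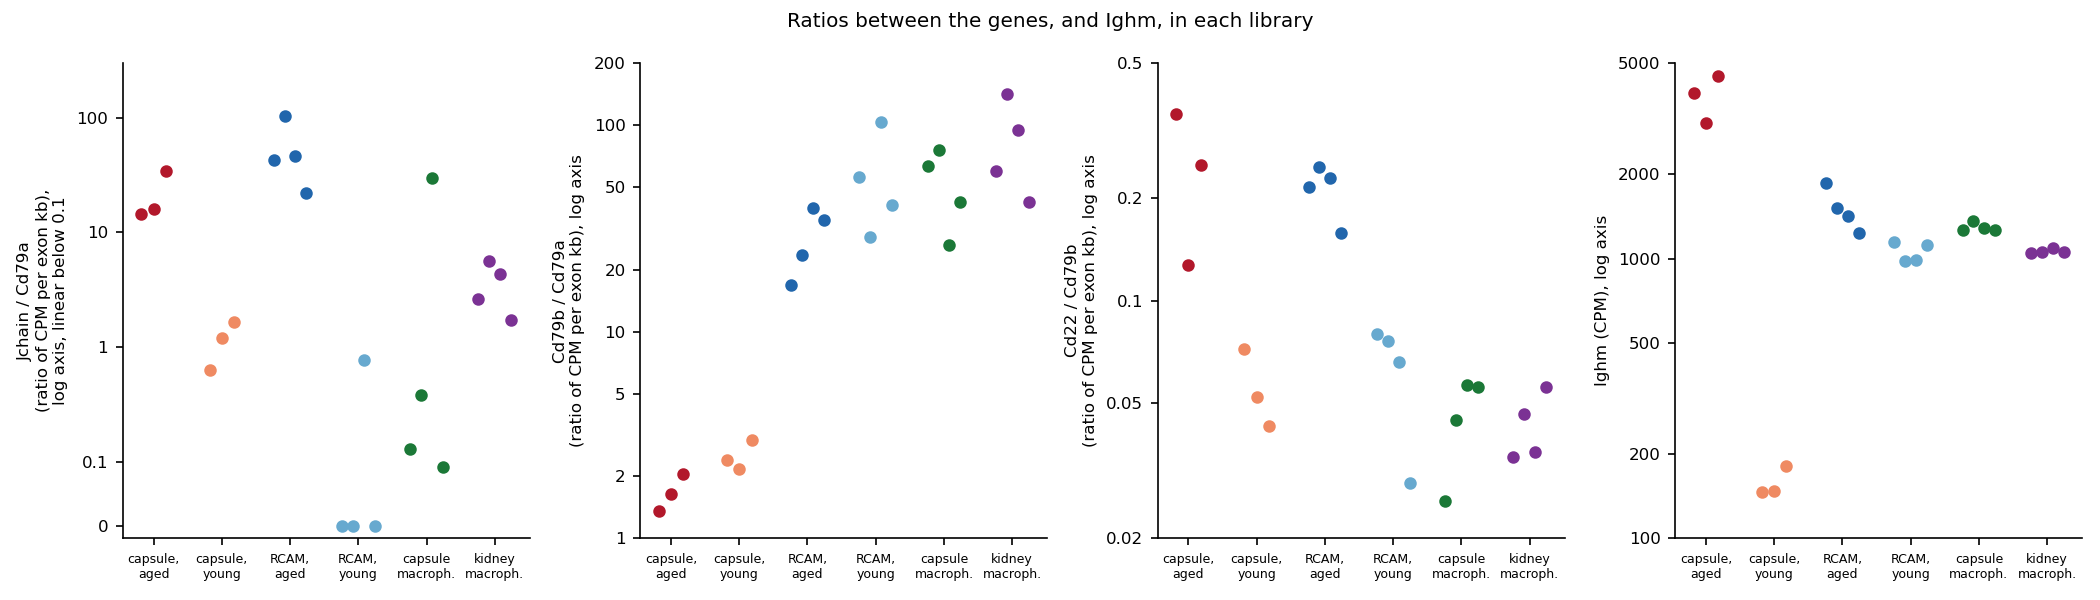
Ratios of Jchain to Cd79a, Cd79b to Cd79a and Cd22 to Cd79b per kilobase of exon, and the level of Ighm in CPM, in each library by group, on logarithmic axes. Capsule macrophage replicate 3 lies at a Jchain to Cd79a ratio of 30.1 while the other 3 libraries of its group lie at 0.0914 to 0.386.

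Immunoglobulin transcripts ran alongside those of Jchain and Mzb1 in part, whose proteins act on immunoglobulin protein. The summed CPM of the variable, diversity and joining segments was 734 to 1875 in aged capsule tissue, against 6.85 to 15.9 in young capsule tissue, and 172 to 360.1 in aged RCAM libraries, against 1.38 to 2.42 in young RCAM libraries. It was 138 in capsule macrophage replicate 3, 2.07 to 2.24 in the other capsule macrophages and 9.2 to 13.1 in kidney macrophages. Ighm, the IgM constant gene, was also higher with age, with 3045 to 4511 CPM in aged capsule tissue, against 147 to 182 CPM in young capsule tissue, and 1239 to 1865 CPM in aged RCAM libraries, against 979 to 1149.5 CPM in young RCAM libraries. Unlike the segments and Jchain it was not near 0 in young RCAM libraries, and the macrophage libraries held 1046 to 1357 CPM.

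Other genes of the B lineage were taken from lists chosen with earlier results of these data known. In aged against young capsule tissue 3685 of all 16350 genes tested were under an unadjusted p of 0.05 in either direction, DESeq2 called 1876 and limma-voom called 25. In the aged capsule the list of other B cell surface and signalling genes had 0 genes called of 20 tested, and 13 higher and 0 lower at an unadjusted p under 0.05, while DESeq2 called 10 and limma-voom 0. Its median log2 fold change was 1.05, against 0.03 for all genes. Cxcr5, the receptor that guides B cells to follicles, had 2.58 ± 0.44 SE (adjusted p = 0.0636), and Cd37 and Fcrl1 gave 0.97 and 1.76. Of 10 B cell transcription factors 1 was called, Ikzf3, which rose with 1.77 ± 0.25 SE (adjusted p = 0.0483), 6 were higher before adjustment, DESeq2 called 4 and limma-voom 0, with a median of 0.54. Foxp1, Pou2f2 and Spib gave 0.94, 1.73 and 1.38 with adjusted p values of 0.0826, 0.085 and 0.11. The list of B1 and age-associated B cells had 0 of 10 called, 8 higher before adjustment, 5 called by DESeq2 and 0 by limma-voom, with a median of 1.06. Fcrl5, a receptor of such cells, had 1.24 ± 0.245 CPM in aged capsule tissue and 0.0601 ± 0.104 CPM in young capsule tissue (log2 fold change 4.12 ± 0.95 SE, adjusted p = 0.0876). Fcrl5 passed the filter on low counts through its aged libraries alone, and its fold and p-value carry that limit. Cd5, Zbtb32 and Itgax gave 1.98, 2.53 and 2.22.

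Genes of plasma cells other than the 9 had 0 of 13 called in the aged capsule, with 6 higher and 2 lower before adjustment, 4 higher and 1 lower by DESeq2 and 0 by limma-voom, and a median of 0.48. Prdm1, the factor that drives plasma cell formation, gave 1.56 ± 0.33 SE (adjusted p = 0.0805), and Slamf7, Derl3 and Cd28 gave 1.8, 1.5 and 1.36. The 2 lower before adjustment were Irf4, another factor of plasma cells, at -1.74 (adjusted p = 0.117) and Eaf2 at -0.92 (adjusted p = 0.18). The 20 Xbp1 target and endoplasmic reticulum folding genes had 0 called, 0 before adjustment, and 0 by DESeq2 and by limma-voom, with a median of 0.17. Those of lowest p, Herpud1, Sel1l, Hsp90b1 and Sec61b, gave -0.43, 0.33, 0.34 and -0.47. The germinal centre list likewise had 0 of 5 called, 0 before adjustment and 0 by DESeq2 and by limma-voom, with Mybl1, S1pr2, Rgs13 and Gcsam at 1.07, 0.43, 0.95 and -0.14. Of 8 B cell precursor genes 3 were tested and 0 called (2 higher before adjustment, 2 by DESeq2, 0 by limma-voom): Il7r at 2.63, Cd93 at 1.01 and Erg at 0.38. Rag1 and Rag2, which cut antibody genes in precursors, were at 0 counts in every library. Of the survival and attraction factors 5 were tested and 0 called (2 higher before adjustment, 2 by DESeq2, 0 by limma-voom), among them Cxcl13, the chemokine for Cxcr5, at 2.38 ± 0.54 SE (adjusted p = 0.0875), Il10 at 1.56, Tnfsf13b at 0.69 and Cxcl12 at 0.56.

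In aged RCAM libraries genes of these lists were called in both directions, where 3.43% of all 15182 genes tested were called higher and 1.38% lower. Cxcl13 rose, with 105 to 752 CPM in aged RCAM libraries, against 3.93 to 36.4 CPM in young RCAM libraries (log2 fold change 4.16 ± 0.89 SE, adjusted p = 0.027). Cd93 rose by 1.11 ± 0.09 SE (adjusted p = 0.000489), Ebf1, an early B lineage factor, by 1.01 ± 0.25 SE (adjusted p = 0.0488), Cd9 by 1.04 and Cd300a by 0.52. Of the plasma cell list Slamf7 rose by 0.56 and Ell2 by 0.54, while Irf4, a factor of plasma cells and of some macrophages, fell by 1.13 on the log2 scale (adjusted p = 0.000474). Tnfrsf13c, the receptor for a B cell survival factor, fell by 0.96 (adjusted p = 0.0499) and Foxp1 by 0.37. The median over the other B cell surface list was -0.08 and over the plasma cell list 0.14, against -0.01 for all genes. Many of these lists hold genes that macrophages express: Prdm1 had 59.5 to 69.2 CPM and Slamf7 369 to 399 CPM in kidney macrophages, against at most 6.48 and 46.0 CPM in capsule tissue.

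**Figure D4:**
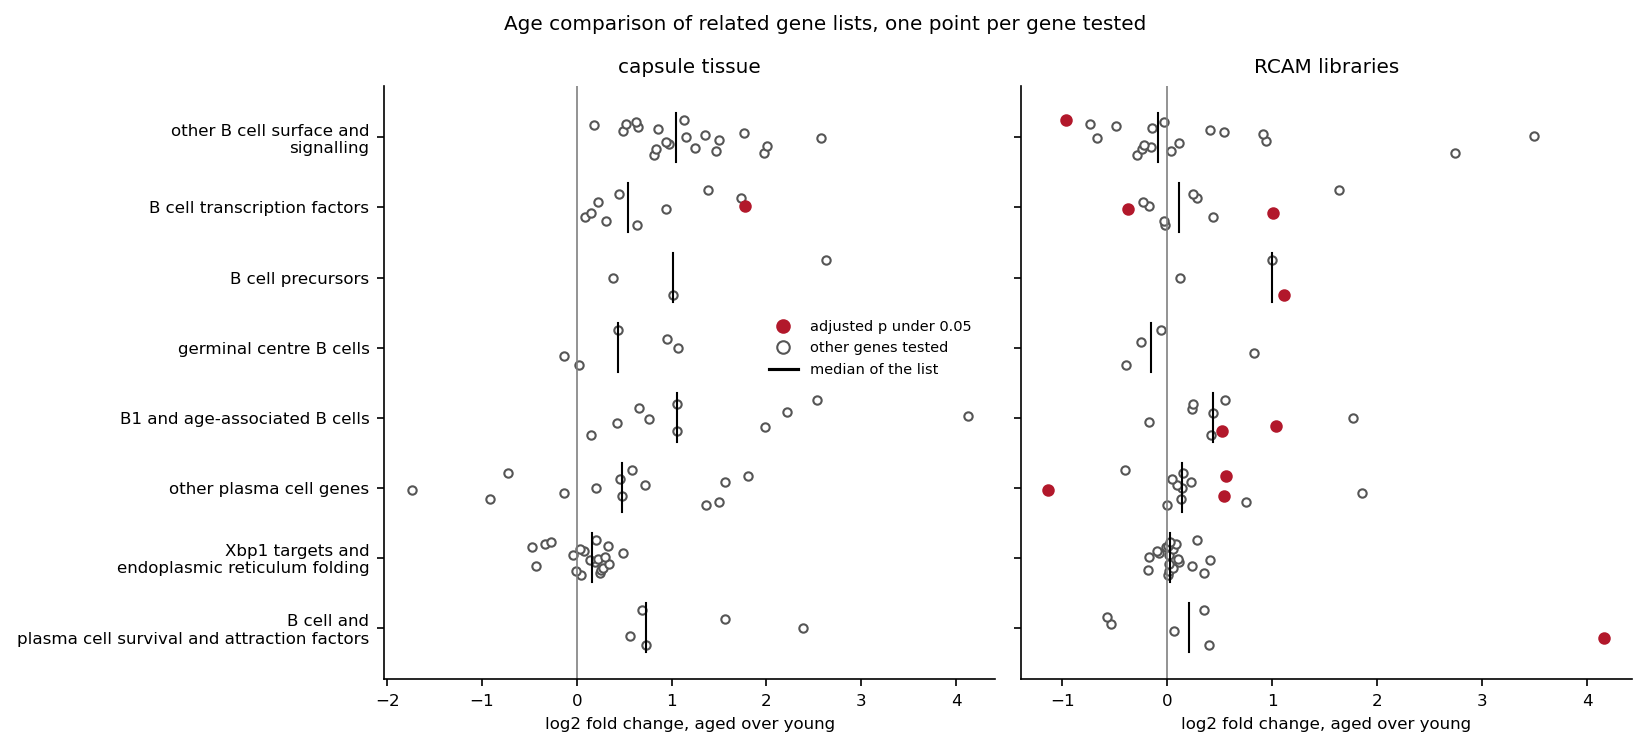
Log2 fold change of aged over young libraries for each tested gene of 8 related lists, in capsule tissue (left) and RCAM libraries (right), with a line at each list's median and filled points at an adjusted p under 0.05. Ikzf3 is the filled point in capsule tissue, and Cxcl13, at 4.16, is the highest filled point in RCAM libraries.

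Markers of other cells moved with some of these results, and their part in them was not tested. The 12 T cell markers summed to 96.2 to 118 CPM in aged capsule tissue, against 23.3 to 46.2 CPM in young capsule tissue, with 11 tested, 0 called by edgeR, 11 higher before adjustment, 9 called by DESeq2 and 0 by limma-voom. The 10 macrophage markers summed to 4137 to 10184 CPM in aged capsule tissue, against 2012 to 4009.8 CPM in young capsule tissue. The 7 proximal tubule markers summed to 1473 to 6319 CPM in aged capsule tissue, against 6679 to 24849 CPM in young capsule tissue, and 7 red cell genes to 3074 to 9154 CPM in aged capsule tissue, against 7069 to 26433 CPM in young capsule tissue. Leaving out both capsule libraries numbered 2, those with adrenal markers, left Jchain, Mzb1, Pou2af1, Cd22 and Cd79a called. In RCAM libraries the T cell markers summed to 65.7 to 97.2 CPM in aged and 64.3 to 86.5 CPM in young ones, with Cd8b1 at 0 in all aged libraries. Of the 7 T cell markers tested there, Cd2 was called lower, at 16.6 ± 6.52 CPM in aged RCAM libraries and 38.6 ± 12.4 CPM in young RCAM libraries. Against capsule tissue, the T cell list had a median log2 fold change of -3.17 at the young age and -3.8 at the aged age. Called higher were 2 markers at each age, and lower 7 and 10, where 75.9% and 70.7% of all genes were called. The summed CPM thus hides markers that differ in opposite directions. The 9 markers of plasmacytoid dendritic cells, which share some B lineage genes, summed to 253 to 539 CPM in aged and 338 to 504 CPM in young RCAM libraries, most of it Cd209d, at 223 to 508 CPM in aged and 312 to 474 CPM in young ones. Cd209d was as high in capsule macrophages, at 274 to 392 CPM. Of these 9 markers, Ly6d, which B cells also express, was called higher in aged RCAM libraries, at 0.556 to 2.88 CPM in aged RCAM libraries, against 0 in all 4 young RCAM libraries. Ly6d passed the filter on low counts through the aged libraries alone, and its call carries that limit. The lymph node stroma list summed to 801 CPM in aged RCAM library 1 and 132 to 163 CPM in the other aged RCAM libraries, against 36.1 to 76 CPM in young RCAM libraries. Cxcl13, a member of that list, had up to 752 CPM in aged RCAM libraries. In capsule tissue the list summed to 120.2, 211 and 209 CPM in aged libraries, against 109.6, 57.6 and 115 CPM in young libraries, and its defining genes Ccl19 and Ccl21a were at 0 in every library. Each of these symbols belongs to several genes in the annotation. How the counting treated reads that match several genes is not given, so these values of 0 do not show absence.

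Genes with the profile most like that of a B cell gene and of a plasma cell gene were sought by the mean absolute difference of centred log2 CPM over all 22 libraries among 19484 genes. For Cd79a the 6 closest were Dnm3, Gm32220, Laptm4b, Afap1, Mmp14 and Gm9403, at 0.52 to 0.62 log2 units, against a median of 1.46 for all genes, and 0 of the 50 closest were immunoglobulin genes. The nearest of the 9 genes to Cd79a was Pax5, at 1.04 and rank 3213, and its partner Cd79b was at 1.77. For Jchain the closest was Gm30211 at 0.61, a long noncoding gene on the plus strand of chr6:70719074-70740554 whose span holds Igkc, the kappa constant gene, and the kappa joining segments on the same strand, so that reads of these genes cannot be told apart with certainty. Iglc2 came next at 1.65 and Mzb1 after it at 1.99, followed by Mmp3, Serpinb9b, Ly6d, Pou2af1, Igha, Clec14a, Ighv1-26 and Col18a1 at 2.23 to 2.57, against a median of 3.74 for all genes, and 7 of the 50 closest were immunoglobulin genes.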

How the data were processed

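Bulk RNA-seq of mouse renal capsules and macrophages was read from the deposited tables of the 22 libraries. The authors' raw counts per gene were used. The authors' deposited RPKM column was not used, because the gene width in the tables equals the genomic span for 85.6% of genes. Per the labels' protocols, RNA went into either a stranded kit (100 ng) or a low-input kit (2 ng), without saying which library had which, and was sequenced as 50-base single-end reads. The build was GRCm38, per the submitters' processing notes. The sources used here do not give the aligner, counter or strand setting. Of 52636 genes, 52489 were found in GENCODE M21.

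Groups follow the titles. CPM is counts divided by the library total. edgeR 4.0.16 (R 4.3.3; quasi-likelihood F test, 2-sided, TMM, filterByExpr, Benjamini-Hochberg over all genes tested, threshold 0.05) compared only the groups named, and was tested on simulated data. DESeq2 1.42.0, limma-voom (limma 3.58.1) and other settings were alternatives. Log2 fold changes come from these fits. A fold against a group at 0 is a bound with 3 counts per library.

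The genes and lists were chosen with earlier results of these data known. Genes named beyond the 9 are up to 4 per list of lowest p in aged against young capsule tissue and the 6 closest in profile to Cd79a and to Jchain (log2 CPM, prior count 2). Others were singled out after their values were seen: those called in RCAM libraries, Irf4 and Eaf2 in capsule tissue, Rag1, Rag2 and Ighm. Some genes that the rule names are not reported here.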

Additional observations from a re-analysis of the deposited data

Results flagged for a closer look

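Of 29 sets of 4 libraries with any spread in 1 of the 9 genes, 7 held a library whose gap to its nearest neighbour was large against the range of the set (Dixon's test at its 95% critical value). All were the highest library of their set. Chance flags about 1 in 20 sets of continuous values, but in 6 of the 7 sets the other 3 libraries were at 0, where any count at all is flagged, so that rate does not apply to them. Jchain reached 38.1 CPM in capsule macrophage replicate 3, where the other 3 had 0.0749 to 0.148 CPM, and Mzb1 reached 0.517 CPM in the same library, where the other 3 had 0. Mzb1 had 0.197 CPM in kidney macrophage replicate 1 and 0 in the other 3. Jchain had 0.235 CPM in young RCAM library 3, and Pou2af1 had 0.368 CPM in young RCAM library 1, each with 0 in the other 3. Pax5 had 0.0641 CPM (3 counts) in aged RCAM library 1 and 0.0254 CPM (1 count) in capsule macrophage replicate 4, each with 0 in the other 3. Sets of 3 capsule tissue libraries were not examined.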

How the results depend on the processing

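Of the values of single genes under the alternatives, 666 kept their direction and side of the threshold, 63 lost the threshold, 28 gained it and 16 changed sign. This tally includes fits of Ms4a1 for the difference of age effects, which have no meaning because its RCAM libraries are all at 0. In aged against young capsule tissue, 5 of the 9 genes were called, against 8 with DESeq2, 8 with no filter on low counts and 2 with limma-voom, and 0 to 5 with 1 library left out. All genes called there numbered 39, against 1876 with DESeq2, 1095 with no filter, 25 with limma-voom and 3097 with all 6 groups in one fit. In RCAM libraries 5 were called, and 3 to 5 with 1 library left out. For the difference of the age effects 0 were called, against 2 with DESeq2, 2 with no filter and 0 to 2 with 1 library left out, among them fits of Mzb1 and Pou2af1 against young RCAM libraries at 0. Scaling by RLE size factors or without immunoglobulin, mitochondrial and haemoglobin genes changed no count of calls in the 2 age comparisons. Jchain in capsule against kidney macrophages turned to -3.25 with limma-voom, -3.53 with the replicate block and -5.51 without capsule macrophage replicate 3 (log2; up to 1.46 without another library). Xbp1 in aged RCAM libraries against aged capsule tissue turned to -0.03 with DESeq2, -0.03 with RLE and -0.13 to 0.17 with 1 library left out. In the difference of age effects Cd79a turned to -0.12 with all 6 groups in one fit, -0.13 without both capsule libraries numbered 2 and -0.1, -0.08, -0.11, -0.05, -0.09 and -0.01 with 1 library left out (-0.11 to 0.27 in all), and Pax5 to -1.18 with limma-voom and -2 without aged RCAM library 1 (up to 1.1 without another). The cause was not tested. Same-numbered libraries of the capsule ages deviated from their group means with correlations of 0.0986, 0.353 and 0.31 across genes, the first under 0.1. Differently numbered ones gave -0.306 to 0.0382, so each library correlated best with its own number. The labels do not say that the numbers mark pairs, and the main fits use no pairing. Whether these libraries were paired was not settled. With a replicate block 8 of the 9 genes were called in capsule tissue (2196 of all genes), 3 in RCAM libraries and 1 for the difference of age effects. In the other comparisons same-numbered correlations were -0.108 to 0.0571. Depth limits Pax5 in RCAM and macrophage libraries, and Mzb1 and Pou2af1 in young RCAM and macrophage libraries, where most libraries had few counts or none.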
